A study of Mus musculus with 4 samples.

Results

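Cells that are copying their DNA or dividing were looked for among the cells of mouse brain tumours through 43 cell cycle genes, of 31053 genes in the tables. The genes came as a list of symbols: 17 act in S phase, when DNA is copied, 20 act in G2 and mitosis (G2/M), and 6 act at or before entry into S phase, here called G1 genes. All 43 had UMIs (unique molecular identifiers, each 1 captured RNA molecule) in every library. The data are 4 single-cell RNA libraries of C57BL/6 mice with a brain tumour of a genetically engineered glioma model, and the submitters describe the cells as immune cells that had infiltrated the tumour, taken at the symptomatic stage. The 2 groups, with 2 libraries each, differ in the tumour's IDH1, a metabolic enzyme whose mutant forms are common in lower-grade gliomas: wtIDH1 tumours have the wild-type form and mIDH1 tumours the mutant form. The substitution, the promoter that drives it, the other lesions of the model, the animals' age and the sort that enriched immune cells are not given in the sources used here. Nothing in the labels says that each library came from its own animal, so p-values measure only the spread between these libraries.

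A cell that commits to division first raises cyclins D and E, whose kinases switch off the retinoblastoma proteins and so free E2F factors to transcribe S phase genes. The MCM helicase is loaded on replication origins with Cdc6 and Cdt1, nucleotides are supplied by enzymes such as ribonucleotide reductase, and Pcna holds the polymerase at the fork. Later, MuvB complexes with B-Myb and FoxM1 raise the G2/M genes (cyclins A and B with Cdk1, Aurora and Polo kinases, spindle and kinetochore proteins), until the anaphase-promoting complex with Cdc20 destroys the cyclins. In tumours, activated T cells and the tumour cells themselves divide, tissue macrophages and microglia can divide in place, and blood monocytes and mature neutrophils have left the cycle.

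The libraries held 3707 to 4708 barcodes and 20908476 to 29849183 UMIs, and 13123 of 16289 barcodes passed the filters on genes, mitochondrial UMIs and doublets. Each cell was placed in a class by how many distinct markers of that class it held, with no cell cycle gene among the 135 markers, and a class name below means cells that passed this gate. There were 1679 T cells, 700 NK cells, 1706 monocytes, 2447 macrophages, 468 microglia, 579 conventional dendritic cells, 3033 mature neutrophils and 222 tumour cells, and 1960 kept cells (14.9%) passed no gate. Of the cells in the tumour gate, 90.1% had a UMI of Nes and 73.9% of Sox2. These 2 neural progenitor genes are markers of that gate, so their shares are no check of it. Ptprc, the pan-leukocyte gene, is not a gate marker and had a UMI in 9.01% of these cells, so this class goes against the libraries' label of immune cells. Median depth was 4802 UMIs in T cells, 2922 in NK cells, 8034.5 in monocytes, 5928 in macrophages, 5378.5 in microglia, 7359 in conventional dendritic cells, 2130 in mature neutrophils and 32243 in tumour cells. Mature neutrophils made up 131, 208, 990 and 1704 cells in wtIDH1 replicate 1, wtIDH1 replicate 2, mIDH1 replicate 1 and mIDH1 replicate 2, the order in which all library values below are given. Their abundant transcript S100a8 had a UMI in 1.30, 1.84, 15.3 and 44.7% of T cells and in 9.23, 5.66, 38.3 and 60.6% of monocytes, higher in both mIDH1 libraries. The 9 markers of the mature neutrophil gate summed to 1778, 1876, 2113 and 3815 CPM in monocytes and 1238, 875, 3327 and 3292 CPM in microglia, also higher in mIDH1. They overlapped between the groups in T cells (196, 97.1, 185 and 154 CPM) and NK cells (165, 184, 238 and 159.97 CPM) and were lower in mIDH1 in conventional dendritic cells (1173, 1091, 639 and 869 CPM). The part of neutrophil RNA in the genotype results was not tested. Pairs of libraries shared 6 to 25 barcodes, at most 0.674% of the smaller library.

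The promoters of members that moved together are shown first, because the 2 phases differed in the letters they hold. The RefSeq table of GRCm38.p6 (mm10), which runs from 250 bases before to 50 bases after each start, held 35 of the 43 genes (15 S phase, 17 G2/M and 3 G1). It held no entry for Mcm4, Gins2, Ccnd1, Ccnd2, Ccne2, Ccna2, Aurkb and Tpx2. Capitals mark 3 motifs searched on both strands: E2F, spelled TTCCCGC and with the variants TTGGCGC, then TTCGCGC, then TTGCCGC; CHR, the cell cycle genes homology region, spelled TTTGAA or else TTTAAA; and the CCAAT box, spelled CCAAT. A match on the other strand is printed as its reverse complement, so ATTGG is a CCAAT box. The motifs can share bases: GCGCCAA is the reverse of an E2F string and runs into CCAAT where a T follows, as at the Ccnb1 start region. Mcm5 and Rrm2 stand for S phase genes that were higher in T than in NK cells, and Cdk1, Ccnb1, Top2a and Mki67 for G2/M genes whose levels are given in every class below.
Mcm5 promoter, chr8:75109259-75109558, plus strand: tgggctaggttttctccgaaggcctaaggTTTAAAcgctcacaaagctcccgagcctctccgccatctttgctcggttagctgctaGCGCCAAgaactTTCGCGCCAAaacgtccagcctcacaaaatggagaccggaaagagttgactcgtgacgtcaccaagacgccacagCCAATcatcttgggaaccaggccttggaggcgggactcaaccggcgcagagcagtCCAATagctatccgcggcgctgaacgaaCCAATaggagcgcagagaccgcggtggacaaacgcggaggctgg
Rrm2 promoter, chr12:24708004-24708303, plus strand: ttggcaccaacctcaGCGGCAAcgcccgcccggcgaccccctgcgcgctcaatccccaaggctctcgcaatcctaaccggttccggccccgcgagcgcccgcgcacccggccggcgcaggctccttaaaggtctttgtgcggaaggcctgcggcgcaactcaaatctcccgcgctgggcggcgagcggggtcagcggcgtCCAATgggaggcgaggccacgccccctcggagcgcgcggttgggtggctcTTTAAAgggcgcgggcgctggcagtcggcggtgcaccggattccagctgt
Cdk1 promoter, chr10:69352863-69353162, minus strand: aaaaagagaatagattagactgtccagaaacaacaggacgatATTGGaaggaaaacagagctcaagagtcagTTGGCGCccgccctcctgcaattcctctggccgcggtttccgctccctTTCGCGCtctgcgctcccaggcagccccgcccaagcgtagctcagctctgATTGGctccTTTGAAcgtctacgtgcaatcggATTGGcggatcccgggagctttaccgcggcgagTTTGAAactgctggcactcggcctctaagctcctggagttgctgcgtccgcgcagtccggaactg
Ccnb1 promoter, chr13:100786437-100786736, minus strand: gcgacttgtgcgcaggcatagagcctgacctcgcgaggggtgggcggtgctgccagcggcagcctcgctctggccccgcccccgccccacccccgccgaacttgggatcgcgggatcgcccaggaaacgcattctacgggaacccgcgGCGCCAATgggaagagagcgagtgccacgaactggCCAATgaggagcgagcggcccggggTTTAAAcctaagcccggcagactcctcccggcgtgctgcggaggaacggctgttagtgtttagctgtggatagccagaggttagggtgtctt
Top2a promoter, chr11:99024140-99024439, minus strand: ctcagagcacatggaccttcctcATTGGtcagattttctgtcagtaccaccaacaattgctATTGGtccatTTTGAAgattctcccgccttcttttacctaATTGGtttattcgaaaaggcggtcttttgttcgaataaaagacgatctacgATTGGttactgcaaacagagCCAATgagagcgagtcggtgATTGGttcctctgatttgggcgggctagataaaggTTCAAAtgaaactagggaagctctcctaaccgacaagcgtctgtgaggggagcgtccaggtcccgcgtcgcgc
Mki67 promoter, chr7:135716330-135716629, minus strand: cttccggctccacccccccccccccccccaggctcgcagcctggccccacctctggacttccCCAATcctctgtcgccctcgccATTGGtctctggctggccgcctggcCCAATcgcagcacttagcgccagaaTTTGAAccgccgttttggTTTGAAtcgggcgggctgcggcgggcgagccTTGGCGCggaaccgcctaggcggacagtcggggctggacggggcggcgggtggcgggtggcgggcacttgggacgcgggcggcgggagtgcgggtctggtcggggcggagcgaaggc

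The first listed promoter of each gene was counted, and 4 of the 35 genes had 2. An E2F match stood in 10 of 15 S phase promoters (66.7%) and in 4 of 17 G2/M promoters (23.5%), against 9.69% of the first promoters of all 27025 genes, of the same length. A CHR match stood in 5 of 15 S phase promoters (33.3%) and in 15 of 17 G2/M promoters (88.2%), against 27.8% of all. A CCAAT box stood in 10 of 15 (66.7%) and 15 of 17 (88.2%), against 37.9% of all. E2F and CHR matches together stood in 3 S phase and 4 G2/M promoters (20 and 23.5%), against 1.57% of all, and Rrm2, Mcm5, Cdk1, Ccnb1 and Mki67 are among these 7. Mcm2, Pcna, Tyms, Tk1 and Dut, all S phase genes, had no E2F match in this window, and the G2/M genes Nusap1 and Bub1 had no CHR match. Of the first promoters of the 3 G1 genes none held E2F or CCAAT and 1 held CHR, while the other Ccnd3 promoter held a CCAAT box. A match describes letters in a window and is not evidence of binding.

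Across the 8 classes, T cells and tumour cells had the highest levels of the cell cycle genes. Levels are given as CPM, the UMIs of a gene relative to all UMIs of its class summed within a library and scaled to 1000000. By mean CPM over the 4 libraries, 10 of the 17 S phase genes were highest in T cells and 7 in tumour cells, whereas 15 of the 20 G2/M genes were highest in tumour cells and 5 in T cells. Among the 7 immune classes, T cells had the highest mean of all 17 S phase and all 20 G2/M genes. Monocytes had the lowest mean of 12 S phase and 17 G2/M genes, and mature neutrophils that of 4 and 3.

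Summed over the 17 S phase genes, T cells stood at 1942, 2463, 1624 and 1080 CPM and tumour cells at 1915, 1281, 1521 and 1250 CPM. The 20 G2/M genes summed to 1666, 2484, 1717 and 1139 CPM in T cells and to 1976, 1970, 3001 and 2110 CPM in tumour cells. The ratio of G2/M to S phase CPM was 0.858, 1.01, 1.06 and 1.05 in T cells and 1.03, 1.54, 1.97 and 1.69 in tumour cells, so that tumour cells were the more weighted to G2/M in every library. At the other end, monocytes summed to 248, 279, 174 and 147 CPM in S phase genes and 68.0, 57.4, 66.6 and 69.5 CPM in G2/M genes. Macrophages, at 416, 622, 384 and 379 CPM in S phase genes, and microglia, at 668, 592, 335 and 638 CPM, lay between.

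**Figure D1:**
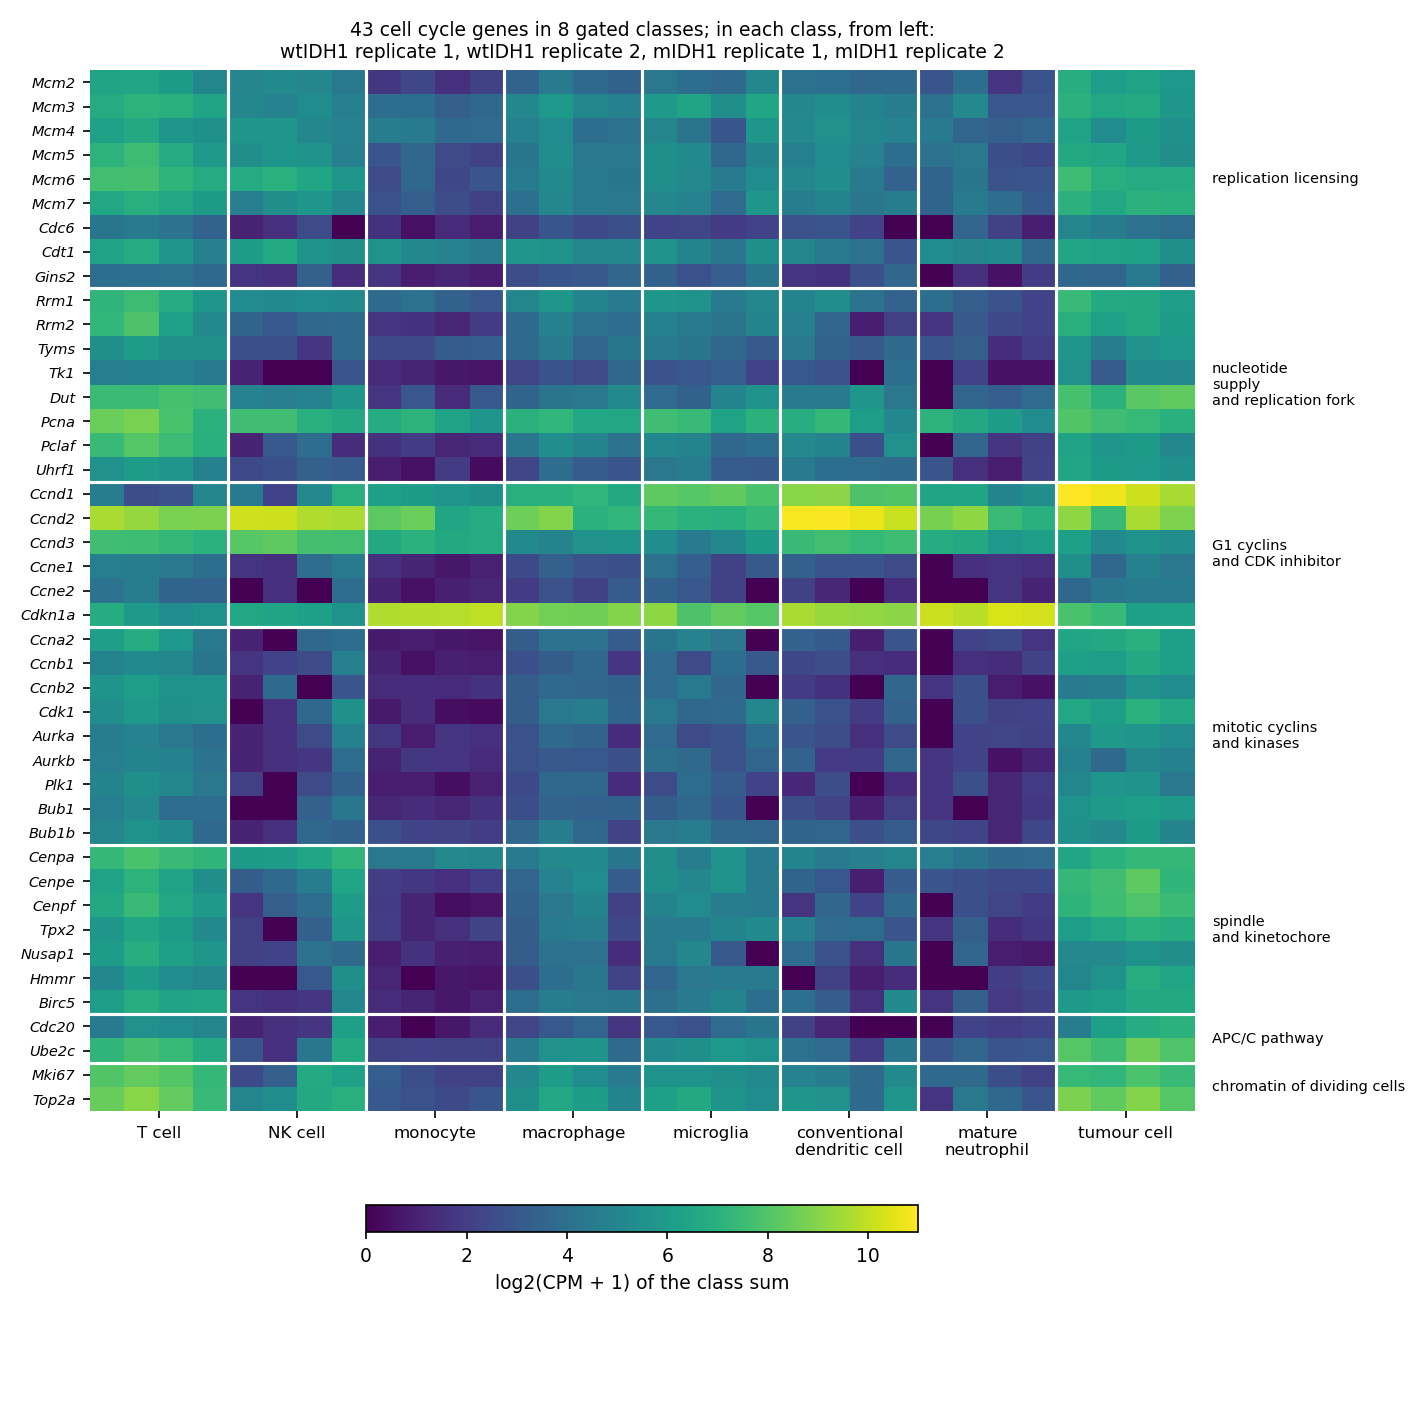
Heat map of log2(CPM + 1) for the 43 genes (rows, grouped by role) in 8 gated classes with the 4 libraries of each side by side (columns). Brighter colours are higher levels. The T cell and tumour cell columns are the brightest across S phase and G2/M rows, the monocyte and mature neutrophil columns the darkest, and the cyclin D and Cdkn1a rows follow another order of classes.

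To count cells rather than RNA, each cell was thinned at random to 1000 UMIs, and a cell was called S-positive or G2/M-positive when it held UMIs of 2 or more of the 17 or 20 genes. Cells under 1000 UMIs were left out: 9 T cells, 5 NK cells, 17 monocytes, 442 macrophages, 49 microglia, 20 conventional dendritic cells, 175 mature neutrophils and 6 tumour cells. Mature neutrophils, which do not divide, serve as background. Their S-positive shares were 3.97, 2.69, 1.08 and 0.247%, and their G2/M-positive shares 0, 1.08, 0.432 and 0.123%, where 0 of 126 cells in wtIDH1 replicate 1 allows a share of up to 2.38%. The S-positive background was itself lower in both mIDH1 libraries, and the G2/M-positive background overlapped between the groups.

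Of T cells, 24.6, 28.3, 18.4 and 13.1% were S-positive and 10, 16.2, 10.7 and 6.94% G2/M-positive. The 95% Wilson intervals of the S-positive shares, which cover counting error only, ran from 20.9 to 28.7% in wtIDH1 replicate 1 and from 9.41 to 17.9% in mIDH1 replicate 2. NK cells had S-positive shares of 10.1, 11.7, 8.08 and 5% but G2/M-positive shares of only 0.722, 0.559, 2.02 and 1.43%. These were 2, 1, 2 and 2 G2/M-positive NK cells, and the 2 of mIDH1 replicate 2 had a median of 55099.5 UMIs before thinning. Of the 7, 28.6% held 2 or more tumour markers, against 0% of the other NK cells. The part of mixed cells in this share was not tested. Both kinds of positive T cell were thus above the background in each library, while the G2/M-positive NK share was within about 2 percentage points of it.

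Of macrophages, 10.9, 13.4, 6.91 and 5.797% were S-positive and 8.305, 9.03, 5.07 and 3.38% G2/M-positive, and of microglia 20.2, 12.6, 5.33 and 8.57% and 15.2, 7.41, 4.67 and 2.86%. Monocytes reached 1.19, 2.11, 0.559 and 1.22% S-positive and 0.509, 0.301, 0 and 0.244% G2/M-positive cells. The monocyte S-positive share was below that of neutrophils in 3 of the 4 libraries, so it is read as background. None of 358 monocytes of mIDH1 replicate 1 was G2/M-positive, which allows a share of up to 0.838%. Conventional dendritic cells had 4.598, 8.72, 3.23 and 1.52% S-positive and 2.299, 2.56, 0 and 3.03% G2/M-positive cells, where 0 of 124 in mIDH1 replicate 1 allows up to 2.42%.

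Tumour cells had the highest shares, 43.3, 40, 32.97 and 32.7% S-positive and 40, 37.5, 46.2 and 50.9% G2/M-positive, in 30, 40, 91 and 55 cells, and with so few cells the intervals were wide (24.6 to 57.7% for the G2/M-positive share in wtIDH1 replicate 1). Without thinning the shares were far higher and followed depth: 61.99, 64.3, 66.8 and 57.7% of T cells, 44.6, 36.6, 31.1 and 24.6% of monocytes, 20.6, 12.98, 5.15 and 2.23% of neutrophils and 87.5, 87.8, 97.8 and 94.8% of tumour cells were then S-positive. The unthinned G2/M-positive shares were 28.9, 32.03, 33.6 and 24.4% of T cells, 20.6, 24.1, 17.3 and 12.5% of macrophages, 2.29, 3.85, 1.31 and 1.06% of neutrophils and 56.2, 70.7, 87.9 and 75.9% of tumour cells.

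**Figure D2:**
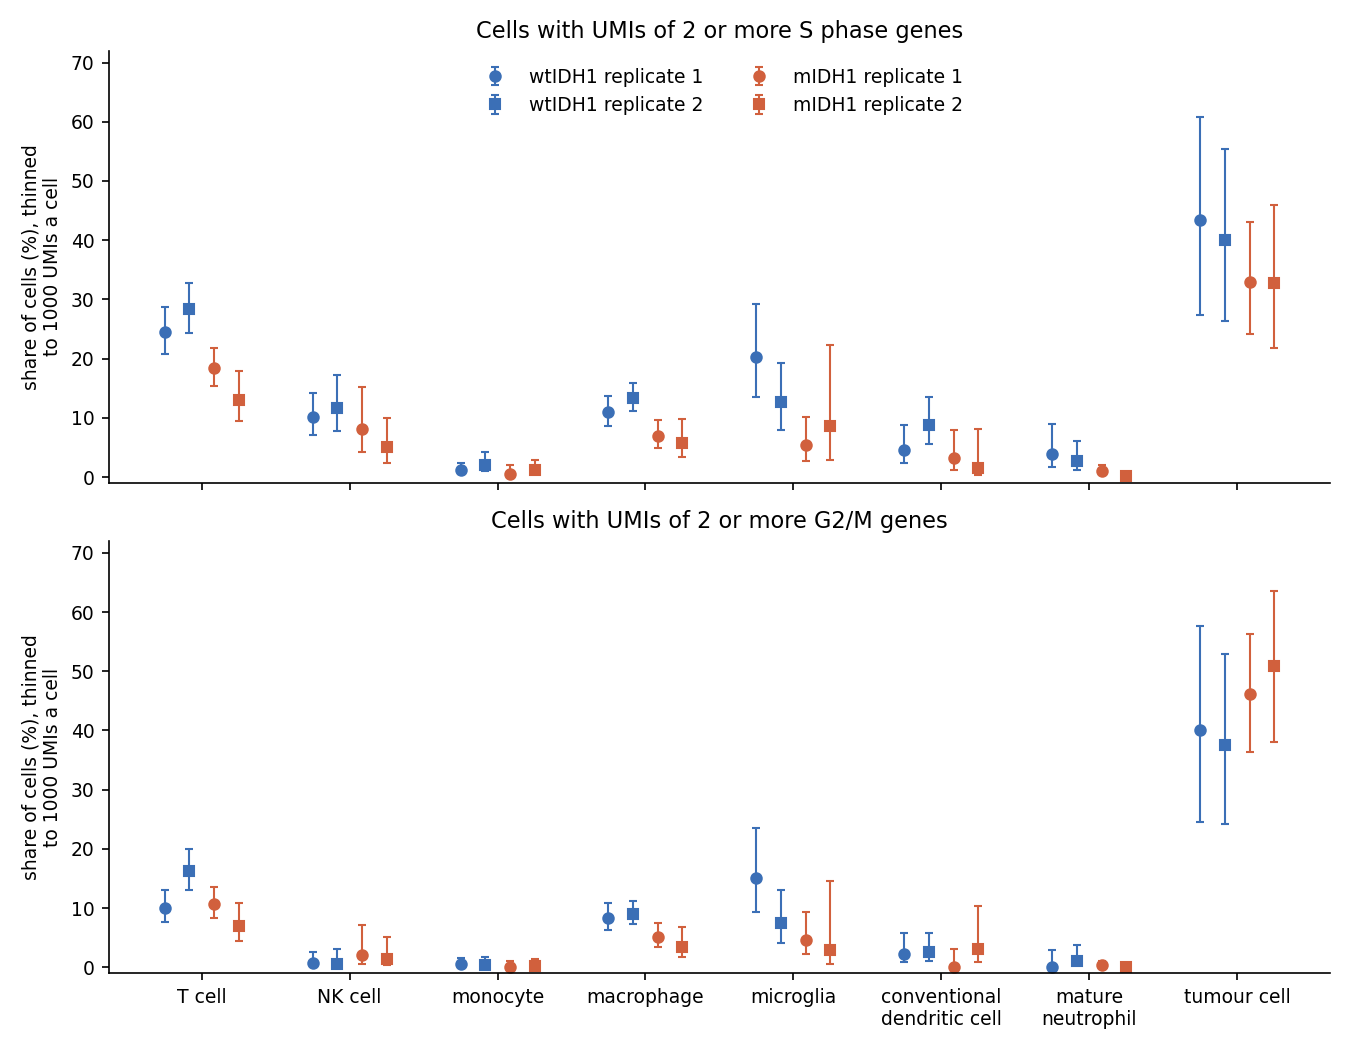
Share of cells (%), thinned to 1000 UMIs each, with UMIs of 2 or more S phase genes (one panel) or 2 or more G2/M genes (the other), for 8 classes and 4 libraries (blue wtIDH1, orange mIDH1, circle replicate 1, square replicate 2) with 95% Wilson intervals as bars. Tumour cells and T cells stand highest, mature neutrophils and monocytes near 0, and the G2/M shares of NK cells stay between 0.559 and 2.02%, on 7 positive cells in all.

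Paired within libraries, T cells had an S-positive share of 21.1 ± 6.74% (mean ± SD, n = 4 libraries) against 8.73 ± 2.901% in NK cells, higher in 4 of 4 libraries (exact two-sided sign-flip permutation p = 0.13, which is the smallest 4 pairs can give, adjusted p = 0.179 over the 10 class comparisons of shares). Their G2/M-positive share was 10.96 ± 3.88% against 1.18 ± 0.674%, also higher in 4 of 4 libraries with the same exact p. Monocytes were below macrophages in 4 of 4 libraries in both shares, by 7.97 and 6.18 percentage points. Tumour cells were above macrophages in 4 of 4 libraries, by 28.0 and 37.2 points. Macrophages and microglia were not told apart (S-positive 9.24 ± 3.51% against 11.7 ± 6.41%, exact permutation p = 0.5, n = 4). Conventional dendritic cells were above monocytes in 4 of 4 libraries in S-positive cells, by 3.25 points, and in 3 of 4 in G2/M-positive cells, by 1.71 points (exact permutation p = 0.25, adjusted p = 0.313).

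The same cells often carried both phases. Of the 190 G2/M-positive T cells, 121 (63.7%) were also S-positive, against 16.5% of the other T cells. The share was 49.3% of 148 G2/M-positive macrophages against 7.38% of the rest, 39.4% of 33 microglia against 9.07%, and 43.3% of 97 tumour cells against 29.4%. Of NK cells 64 were S-positive and 7 G2/M-positive, with no cell in both. G2/M-positive T cells were deep, with a median of 12908.5 UMIs before thinning against 4468.5 in the others, and G2/M-positive macrophages were shallow, at 2892 against 8626. Markers of other classes, counted before thinning and so dependent on depth, differed with the G2/M-positive state in both directions. Of G2/M-positive T cells, 15.3% held 2 or more macrophage markers against 6.76% of the others, and 1.58% held 2 or more tumour markers against 0.135%. Of G2/M-positive macrophages, 32.4% held 2 or more mature neutrophil markers against 54.3% of the others, and of G2/M-positive microglia 21.2% against 37.6%. Of G2/M-positive microglia, 9.09% held 2 or more T cell markers against 0.777% of the others, and 6.06% held 2 or more tumour markers against 0.777%. The part of mixed cells in the shares was not tested.

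The replication licensing genes are Mcm2 to Mcm7, the helicase subunits, the loaders Cdc6 and Cdt1, and Gins2 of the active helicase. Mcm5 stood at 139, 184, 107 and 60.3 CPM in T cells and at 100.2, 90.1, 60.5 and 42.5 CPM in tumour cells. It was lower in NK cells (41.97, 53.6, 49.4 and 25.6 CPM), macrophages (18.6, 41.1, 20.4 and 19.3 CPM), microglia (43.5, 36.3, 12.2 and 29.2 CPM) and conventional dendritic cells (25.7, 39.7, 28.3 and 14.8 CPM). Monocytes, at 6.45, 11.4, 4.78 and 3.56 CPM, and mature neutrophils, at 16.9, 20.2, 5.17 and 4.24 CPM, were lowest. In T cells 8 of the 9 licensing genes were above NK cells within libraries, and in monocytes 7 of 9 were below macrophages. Cdt1 was the exception in T cells, at a log2 fold change over NK cells of 0.11 ± 0.16 (SE), edgeR adjusted p = 0.654, and it was lower in conventional dendritic cells than in monocytes (-0.89 ± 0.18 (SE), edgeR adjusted p = 0.00177).

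Nucleotide supply and the replication fork are covered by the ribonucleotide reductase subunits Rrm1 and Rrm2, thymidylate synthase Tyms, thymidine kinase Tk1, the dUTPase Dut, the clamp Pcna with its binding protein Pclaf, and Uhrf1, which helps copy DNA methylation. Rrm2, the subunit made for S phase, stood at 154, 239.8, 77.6 and 36.1 CPM in T cells, 120.2, 76.3, 102 and 65.1 CPM in tumour cells and 10.8, 7.14, 11.8 and 12.8 CPM in NK cells. Macrophages (12.6, 27.8, 16.2 and 13.9 CPM) and microglia (27.8, 20.6, 17.6 and 29.2 CPM) were close to each other, and monocytes (2.21, 2.04, 1.27 and 2.7996 CPM) and neutrophils (2.12, 7.35, 4.31 and 3.57 CPM) were near 0. Conventional dendritic cells stood at 26.4, 10.9, 0.914 and 3.28 CPM, with the 2 wtIDH1 libraries above the 2 mIDH1 libraries. Pcna was less restricted: 357, 437, 225 and 128 CPM in T cells, 254, 199, 162 and 126 CPM in tumour cells, 196, 195, 122 and 99.2 CPM in NK cells and still 112, 136, 80.3 and 54.2 CPM in monocytes. It stood at 134, 149, 95.7 and 92.5 CPM in macrophages, 198, 176, 83.5 and 131 CPM in microglia, 115, 159, 71.3 and 34.5 CPM in conventional dendritic cells and 136, 99.2, 63.8 and 39.05 CPM in neutrophils. A Pcna UMI was found in 19.6, 23.4, 14.6 and 11.02% of thinned T cells and 13.5, 6.45, 5.08 and 3.02% of thinned neutrophils.

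Mitotic cyclins and kinases are cyclin A (Ccna2), cyclins B (Ccnb1, Ccnb2), their kinase Cdk1, the kinases Aurka, Aurkb and Plk1, and the checkpoint kinases Bub1 and Bub1b. Cdk1 stood at 92.5, 68.3, 129 and 93.9 CPM in tumour cells and 40.7, 58.5, 44.7 and 46.1 CPM in T cells. In macrophages (8.54, 20.001, 24.3 and 10.7 CPM) and microglia (20.6, 11.8, 12.9 and 32.8 CPM) the ranges overlapped. Monocytes (0.737, 1.63, 0.319 and 0.255 CPM), neutrophils (0, 5.51, 3.45 and 3.57 CPM) and conventional dendritic cells (9.27, 5.76, 2.74 and 9.85 CPM) were low. Ccna2 followed the same order, from 90.9, 98.1, 125 and 72.6 CPM in tumour cells and 71.3, 111, 57.4 and 20.7 CPM in T cells to 0.737, 0.815, 0.637 and 0.509 CPM in monocytes. It stood at 8.54, 16.8, 16.05 and 8.02 CPM in macrophages, 18.1, 28.4, 19.7 and 0 CPM in microglia, 9.98, 7.68, 0.914 and 6.57 CPM in conventional dendritic cells and 0, 3.67, 4.31 and 2.23 CPM in neutrophils. Ccnb1 stood at 73.99, 68.3, 97.5 and 72.2 CPM in tumour cells, 29.1, 36.9, 32.2 and 18.3 CPM in T cells and 1.11, 0.407, 0.956 and 0.763 CPM in monocytes, and the tumour range lay above the T cell range. In the other classes Ccnb1 was at 5.36, 8.47, 12.04 and 2.14 CPM (macrophages), 13.3, 4.8996, 14.9 and 7.29 CPM (microglia), 4.28, 5.12, 1.83 and 1.64 CPM (conventional dendritic cells) and 0, 1.84, 1.72 and 3.35 CPM (neutrophils).

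Mki67, which coats mitotic chromosomes and is the usual stain for dividing cells, and Top2a, which untangles replicated DNA, mark dividing cells from late S phase on. Mki67 stood at 253, 325, 266 and 158 CPM in T cells and 165, 152, 236 and 168 CPM in tumour cells, and the 2 ranges overlapped. Macrophages had 32.997, 65.4, 39.2 and 21.9 CPM, microglia 47.2, 47.04, 44.1 and 36.5 CPM and conventional dendritic cells 28.5, 23.7, 12.8 and 36.1 CPM. Monocytes (8.85, 5.29, 3.504 and 3.56 CPM) and neutrophils (12.7, 12.9, 5.17 and 3.35 CPM) were lowest and overlapped. Top2a was highest in tumour cells and next in T cells by mean, with ranges that overlapped, at 455, 313, 496 and 275 CPM in tumour cells, 348, 528, 324 and 173 CPM in T cells, 43.4, 92.9, 66.3 and 30.5 CPM in macrophages and 74.98, 102, 50.9 and 40.1 CPM in microglia. It stood at 55.6, 46.1, 12.8 and 52.6 CPM in conventional dendritic cells, 7.19, 5.702, 4.46 and 6.62 CPM in monocytes and 2.12, 20.2, 12.1 and 6.47 CPM in neutrophils. A Mki67 UMI was found in 7.61, 10.2, 7.12 and 3.67% of thinned T cells, 13.3, 5, 10.99 and 20% of thinned tumour cells and 0.794, 1.08, 0.54 and 0.123% of thinned neutrophils.

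The G1 genes had another order of classes. Ccnd1, the cyclin D of many solid tissues, stood at 2042, 1667, 1158 and 753 CPM in tumour cells, followed by conventional dendritic cells (527, 544, 244 and 256 CPM) and microglia (308, 284, 318 and 226 CPM). It was at 119.8, 126, 150.2 and 101 CPM in macrophages, 75.02, 62.3, 52.9 and 43.8 CPM in monocytes, 84.7, 84.5, 30.6 and 42.8 CPM in neutrophils and 23.5, 4.98, 6.004 and 30.7 CPM in T cells. T cells, which had the highest S phase levels of the immune classes, thus had low Ccnd1 in every library. Ccnd2 was highest in conventional dendritic cells, at 1912, 1979, 1653 and 1064 CPM, and in NK cells, at 1188, 1134, 828 and 784 CPM, before T cells, at 772, 608, 443 and 449.9 CPM, and tumour cells, at 558, 174, 767 and 467 CPM. Ccnd3, the cyclin D of lymphocytes, stood at 282, 311, 216 and 203 CPM in NK cells, 177, 203, 163 and 191 CPM in conventional dendritic cells and 197, 190.004, 161 and 129 CPM in T cells, against 37.5, 29.3, 46.6 and 50.8 CPM in macrophages, 41.1, 21.6, 34.6 and 61.98 CPM in microglia and 72.4, 36.6, 49.2 and 40.6 CPM in tumour cells. The NK and T cell ranges of Ccnd3 did not overlap.

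Cdkn1a encodes p21, which blocks cyclin-dependent kinases and binds Pcna. Its levels ran against those of the S phase and G2/M genes in most classes: 1125, 917, 1321 and 1206 CPM in mature neutrophils and 829.98, 848, 879 and 975 CPM in monocytes, against 225, 171, 72.2 and 76.4 CPM in tumour cells and 109.9, 59.3, 38.4 and 47.9 CPM in T cells. NK cells were an exception, with low Cdkn1a (95.8, 83.9, 72.9 and 49.6 CPM) but also low G2/M genes in wtIDH1. There the 20 G2/M genes summed to 136 and 170 CPM in NK cells, against 245 and 496 CPM in macrophages. Conventional dendritic cells (768, 632, 586 and 550.2 CPM), macrophages (489, 403, 394 and 496 CPM) and microglia (556, 242, 322 and 269.8 CPM) lay between. The lowest monocyte library was above the highest library of every class but neutrophils. The cyclins E, Ccne1 and Ccne2, were low in most classes: Ccne2 averaged 15.5 ± 6.53 CPM (SD, n = 4) in T cells, 18.7 ± 4.52 CPM in tumour cells and 0.818 ± 1.04 CPM in neutrophils.

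**Figure D3:**
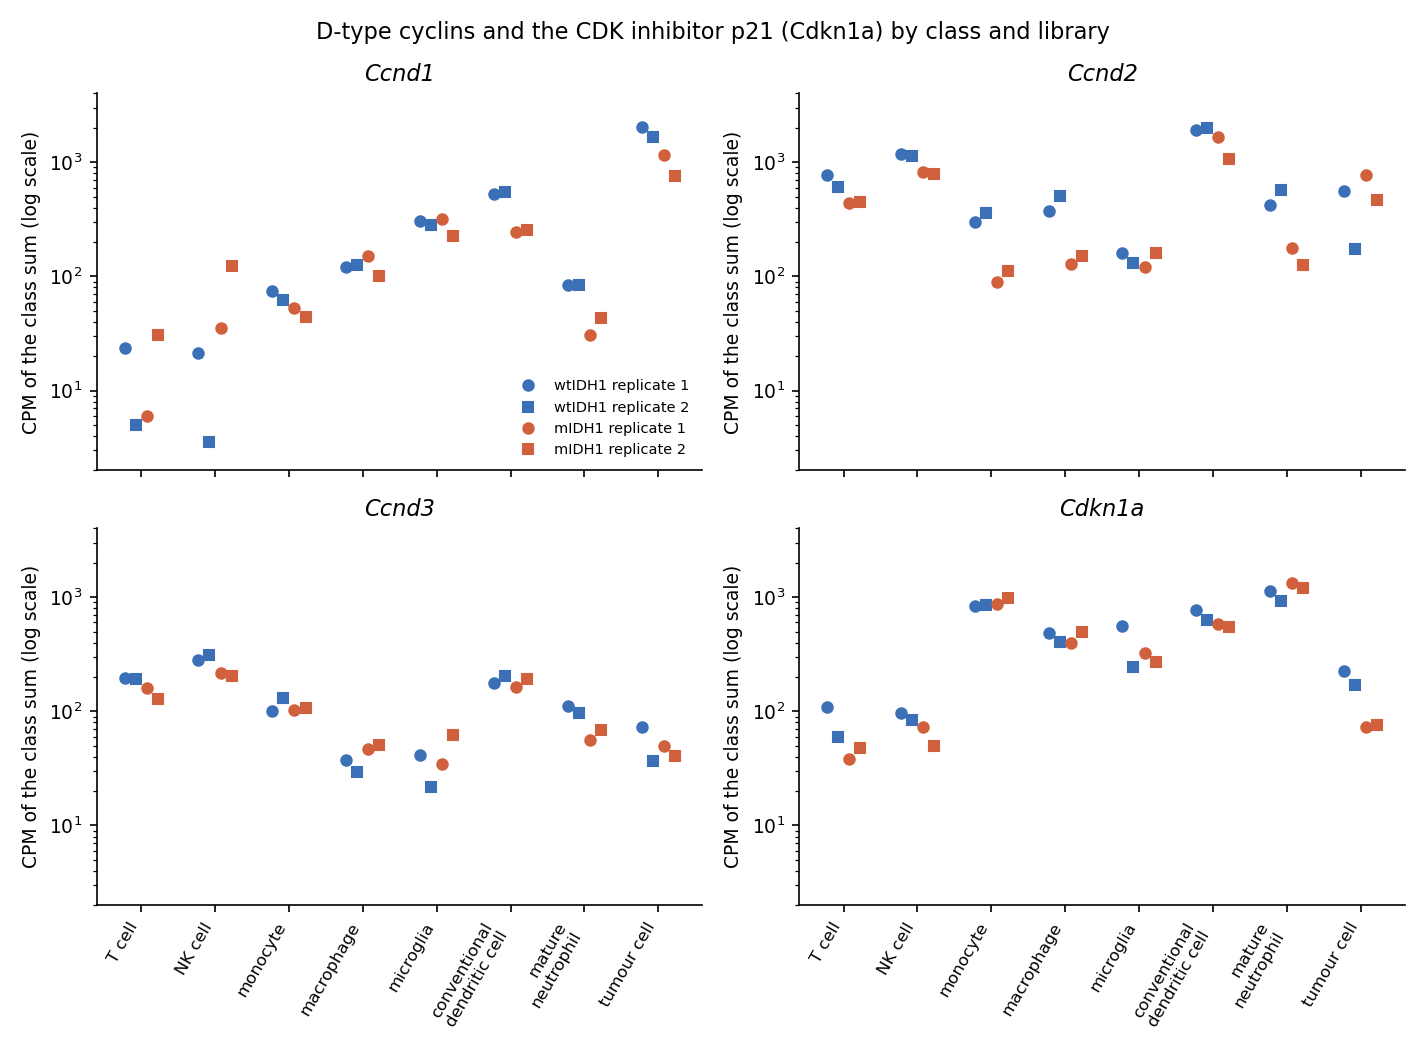
Level of Ccnd1, Ccnd2, Ccnd3 and Cdkn1a (CPM of the class sum, log axis, one panel each) in 8 classes, with one point per library (blue wtIDH1, orange mIDH1, circle replicate 1, square replicate 2). Ccnd1 is highest in tumour cells, Ccnd2 in conventional dendritic cells, Ccnd3 in NK cells, and Cdkn1a in mature neutrophils (917 to 1321 CPM).

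Ordered by UMIs alone, with no correction for how well each transcript is captured, the most abundant of the 43 genes in a class was a G1 gene in all 8 classes. In T cells the highest means were Ccnd2 (568 ± 156), Top2a (343 ± 146) and Pcna (287 ± 137) CPM (mean ± SD, n = 4 libraries) and the lowest Gins2 (14.8 ± 1.74), Ccne2 (15.5 ± 6.53) and Ccnd1 (16.3 ± 12.8) CPM. In NK cells they were Ccnd2 (983 ± 207), Ccnd3 (253 ± 51.6) and Pcna (153 ± 49.7) CPM, and Tk1 (1.87 ± 3.06), Cdc6 (1.89 ± 2.01) and Gins2 (3.74 ± 3.79) CPM. Tumour cells had Ccnd1 (1405 ± 566), Ccnd2 (491 ± 246) and Top2a (385 ± 107) CPM at the top and Gins2 (13.4 ± 5.19), Ccne2 (18.7 ± 4.52) and Cdc6 (21.3 ± 7.65) CPM at the bottom. T cells and tumour cells were the classes with Top2a among their 3 most abundant members.

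The myeloid classes had Cdkn1a or Ccnd2 at the top. In monocytes the highest were Cdkn1a (883 ± 64.4), Ccnd2 (216 ± 136) and Ccnd3 (109.99 ± 13.3) CPM and the lowest Hmmr (0.609 ± 0.531), Ccna2 (0.674 ± 0.132) and Cdk1 (0.735 ± 0.633) CPM (mean ± SD, n = 4). In macrophages the highest were Cdkn1a (445 ± 54.3), Ccnd2 (289 ± 181) and Ccnd1 (124 ± 20.5) CPM and the lowest Ccne2 (4.99 ± 2.35), Cdc6 (5.01 ± 1.29) and Cdc20 (6.01 ± 3.87) CPM. Microglia had Cdkn1a (347 ± 143), Ccnd1 (284 ± 41.1) and Pcna (147 ± 50.9) CPM at the top, and Cdc6 (3.48 ± 0.526), Ccne2 (4.98 ± 4.199) and Tk1 (6.34 ± 2.14) CPM at the bottom. In conventional dendritic cells Ccnd2 (1652 ± 416), Cdkn1a (634 ± 95.6) and Ccnd1 (393 ± 165) CPM were highest and Cdc20 (1.21 ± 1.68), Hmmr (1.44 ± 1.35) and Ccne2 (1.62 ± 1.47) CPM lowest. In mature neutrophils Cdkn1a (1142 ± 170.4), Ccnd2 (324 ± 207) and Pcna (84.4 ± 42.1) CPM were highest and Ccne2 (0.818 ± 1.04), Tk1 (1.14 ± 1.704) and Gins2 (1.29 ± 1.33) CPM lowest. Ccne2 was among the 3 lowest members in 6 of the 8 classes.

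Class differences were tested on the summed UMIs with edgeR's quasi-likelihood test with Benjamini-Hochberg adjustment over all genes and the library as a block, with a threshold of 0.05. T cells differed from NK cells in 34 of 43 genes, 31 higher and 3 lower, where 30.0% of all genes passed (15.9% higher, 14.1% lower). These were 16 of 17 S phase and 15 of 20 G2/M genes. Pclaf, at 167, 273, 183 and 126 CPM in T cells and 1.08, 7.14, 14.1 and 1.5997 CPM in NK cells, differed most (log2 fold change 5.27 ± 0.30 (SE), edgeR adjusted p = 5.59e-07). Rrm2 (3.55), Mki67 (2.63), Top2a (2.30), Mcm5 (1.56) and Pcna (0.88) were also higher on the log2 scale, as was Dut (2.55). The 3 lower genes were the cyclins D: Ccnd1 (-1.21 ± 0.41 (SE), edgeR adjusted p = 0.0447), Ccnd2 (-0.76 ± 0.08 (SE), edgeR adjusted p = 3.72e-05) and Ccnd3 (-0.54 ± 0.10 (SE), edgeR adjusted p = 0.00167). The Ccnd1 call rested on few cells: of the 77 Ccnd1 UMIs in NK cells of mIDH1 replicate 2, 4 remained without 2 cells that held tumour markers. It was lost without wtIDH1 replicate 2, mIDH1 replicate 1 or mIDH1 replicate 2 (-1.34, -0.88 and -0.71, edgeR adjusted p = 0.0544, 0.143 and 0.3), and with immune cells over 20000 UMIs left out (-0.29, edgeR adjusted p = 0.682). Of the related genes outside the 43, 17 of 24 other S phase and 24 of 29 other G2/M genes were higher in T cells.

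Monocytes differed from macrophages in 35 of 39 tested genes, 33 lower and 2 higher, where 46.3% of all genes passed (23.1% lower). The 4 untested genes had too few UMIs. Lower in monocytes were 14 of 17 S phase and 15 of 16 tested G2/M genes, among them Cdk1 (log2 fold change -4.28 ± 0.35 (SE), edgeR adjusted p = 9.68e-06), Ccna2 (-3.97), Birc5, which keeps the kinetochore kinase complex in place (-3.85), Top2a (-3.04) and Mki67 (-2.67). Higher were Ccnd3 (1.53 ± 0.15 (SE), edgeR adjusted p = 2.54e-05) and Cdkn1a (1.06 ± 0.10 (SE), edgeR adjusted p = 1.65e-05). Outside the 43, the CDK inhibitors Cdkn2d (1.70) and Cdkn1b (1.07) and the E2F factor E2f2 (1.80) were higher too, and the G2/M transcription factor Foxm1 was lower (-2.81). With immune cells over 20000 UMIs left out, 23 of the 43 genes passed, where 42% of all tested genes did.

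Macrophages and microglia differed in 3 of 41 tested genes, where 18.3% of all genes passed. Ccnd2 was higher in macrophages (log2 fold change 0.94 ± 0.28 (SE), edgeR adjusted p = 0.0336), and Ccnd1 (-1.11 ± 0.12 (SE), edgeR adjusted p = 5.92e-05) and Mcm3 (-0.66 ± 0.19 (SE), edgeR adjusted p = 0.0336) were lower. None of the 20 G2/M genes passed; their median log2 fold change was -0.26. The count was 15 without the immune cells over 20000 UMIs and was 1 without wtIDH1 replicate 2, where 23.4 and 12.8% of all genes passed.

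Conventional dendritic cells differed from monocytes in 19 of 22 tested genes, 17 higher and 2 lower, where 46.4% of all genes passed (22.0% higher). Pclaf (log2 fold change 3.74 ± 0.35 (SE), edgeR adjusted p = 4.53e-06), Uhrf1 (3.71), Ccnd2 (2.97), Top2a (2.60) and Ccnd1 (2.54) were higher. Cdkn1a was lower (-0.63 ± 0.10 (SE), edgeR adjusted p = 0.00034), beside Cdt1.

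Tumour cells differed from macrophages in 37 of 43 genes, 36 higher and 1 lower, where 63.5% of all genes passed (30.7% higher). All 20 G2/M genes were higher, led by the centromere protein Cenpf (log2 fold change 3.32 ± 0.38 (SE), edgeR adjusted p = 0.000195), Cdc20 (3.19) and Ccnb1 (3.05), and so were 13 of 17 S phase genes and Ccnd1 (3.0). Cdkn1a was the lower gene (-2.29 ± 0.28 (SE), edgeR adjusted p = 0.000274). Outside the 43, 32 of 32 other G2/M genes and 19 of 26 other S phase genes were higher, as were Foxm1 (3.24), its partner gene Mybl2, which encodes B-Myb (3.51), and the cyclin D kinase Cdk4 (1.57), while the retinoblastoma gene Rb1 was lower (-2.52).

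T cells were split by UMIs of the co-receptors and of Foxp3, the factor of regulatory T cells, after their values had been seen, so these are descriptions without a test. Cells with Cd8a or Cd8b1 and neither Cd4 nor Foxp3 (813 cells, median 6709 UMIs) were S-positive in 35.6, 39.1, 22.1 and 17.5% and G2/M-positive in 21.9, 26.6, 14.3 and 11.1% after thinning. Cells with Cd4 alone (443 cells, median 4005 UMIs) were S-positive in 23.3, 11.5, 12.8 and 8.77% and G2/M-positive in 4.44, 2.08, 3.67 and 1.75%. Cells with Foxp3 (172 cells, median 3662 UMIs) were S-positive in 11.3, 11.1, 13.8 and 4.17% and G2/M-positive in 4.84, 7.41, 10.3 and 4.17%. Of these 3 subsets the Cd8 cells had the highest shares of both phases in every library, and their wtIDH1 shares lay above their mIDH1 shares. The 226 cells with no UMI of these genes (median 2950 UMIs) were S-positive in 12.3, 23.6, 8.696 and 8.33% and G2/M-positive in 4.62, 5.56, 0 and 0%. The other 25 cells, with UMIs of Cd4 and of Cd8a or Cd8b1, numbered 7, 3, 13 and 2, and 9 of them were S-positive and 4 G2/M-positive. Ccnd2 was higher in Foxp3 than in Cd8 cells, at 1472, 1428, 997 and 1266 CPM in Foxp3 cells and 508, 443, 331 and 300.4 CPM in Cd8 cells, with no overlap.

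**Figure D4:**
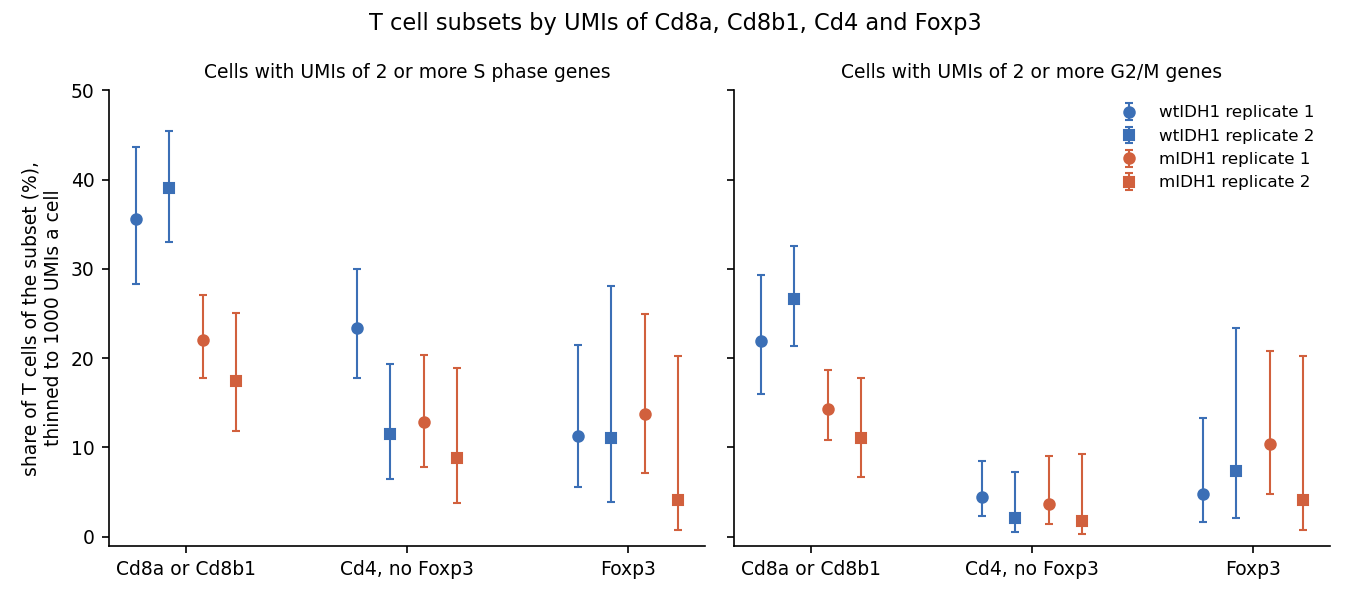
Share of T cells (%), thinned to 1000 UMIs, that were S-positive or G2/M-positive in subsets defined by UMIs of Cd8a or Cd8b1, of Cd4 without Foxp3, and of Foxp3, by library, with 95% Wilson intervals as bars. Of the 3 subsets the Cd8 cells are highest in each library, from 17.5 to 39.1% S-positive.

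Neutrophil precursors, which make granule proteins such as Elane and divide in the bone marrow, were too rare for a test: 2, 1, 1 and 7 cells passed the gate, with a median of 17911 UMIs. Elane UMIs were in 0, 0, 100 and 42.9% of them. The 3 wtIDH1 cells had no UMI of Elane, Ngp, S100a8 or Cxcr2, and 50 and 100% of them had the macrophage gene C1qa, so their markers go against the name. Of the 7 in mIDH1 replicate 2, 2 were S-positive (28.6%, Wilson interval 8.22 to 64.1%) and 1 was G2/M-positive (14.3%), and none of the other 4 was S-positive. They held 0, 0, 7 and 15 UMIs of Mki67 and 0, 0, 5 and 19 of Top2a. The 40 granule-rich immature neutrophils had no S-positive cell among the 39 of 1000 or more UMIs, which allows a share of up to 7.69%, and 1 G2/M-positive cell of 24 in mIDH1 replicate 2.

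Between the genotypes, the mean S-positive share was lower in mIDH1 than in wtIDH1 libraries in all 8 classes, the background neutrophils included. In T cells it was 15.7 ± 3.74% (mean ± SD, n = 2) against 26.4 ± 2.65% (exact two-sided permutation p = 0.33, the smallest that 2 against 2 libraries can give, adjusted p = 0.444 over 16 comparisons). In macrophages it was 6.35 ± 0.789% against 12.1 ± 1.74%, in microglia 6.95 ± 2.29% against 16.4 ± 5.38% and in neutrophils 0.663 ± 0.589% against 3.33 ± 0.905%. The libraries of the 2 genotypes did not overlap in 7 classes and overlapped in monocytes. The G2/M-positive share was 8.81 ± 2.64% against 13.1 ± 4.41% in T cells, where the libraries overlapped, and 4.23 ± 1.19% against 8.67 ± 0.515% in macrophages, where they did not. In tumour cells S-positive cells made up 32.8 ± 0.1695% against 41.7 ± 2.36%, and G2/M-positive cells 48.5 ± 3.36% against 38.8 ± 1.77%, higher in mIDH1. No difference in shares can pass the threshold with these numbers, and without thinning the S-positive share of tumour cells was 8.66 points higher in mIDH1.

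In T cells 1 of 43 genes differed between the genotypes by edgeR's quasi-likelihood test with Benjamini-Hochberg adjustment, where 3.28% of all genes did. Rrm2 fell from 154 and 239.8 CPM in wtIDH1 to 77.6 and 36.1 CPM in mIDH1 T cells (log2 fold change -1.51 ± 0.31 (SE), edgeR adjusted p = 0.0364). Its 2 groups did not overlap, which a choice by p favours. Of the 43 genes, 35 were lower in mIDH1 with a median log2 fold change of -0.23, against -0.01 over all genes, and 13 had an unadjusted p under 0.05, against 22.4% of all genes. Scaled to library totals without TMM, which moved the median of all genes to -0.25, 40 of the 43 were lower. Pcna (-0.92 ± 0.23 (SE), edgeR adjusted p = 0.0644), Mcm5 (-0.68 ± 0.24 (SE), edgeR adjusted p = 0.143) and Mki67 (-0.20 ± 0.23 (SE), edgeR adjusted p = 0.664) did not pass. Without mIDH1 replicate 2, Rrm2 did not pass (-1.17). Without wtIDH1 replicate 1, wtIDH1 replicate 2 or mIDH1 replicate 1 more members passed than in the main fit. Most did so without mIDH1 replicate 1, where the share of all genes called was also highest. Each of these fits leaves 1 library in a group. With T cells over 20000 UMIs left out (66 cells), where 3.64% of all genes passed, 5 genes fell: Rrm2 (-2.30), Pcna (-1.14), Mcm5 (-1.13), Rrm1 (-1.12) and Mcm4 (-0.85), all of S phase. The T cells of mIDH1 replicate 2 were the fewest, at 246.

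In NK cells 19 of the 43 genes had enough UMIs and 5 of them rose, where 2.12% of all genes passed and 1.94% rose. Mki67 stood at 4.304, 8.93, 104 and 78.4 CPM (log2 fold change 4.04 ± 0.42 (SE), edgeR adjusted p = 0.00279) and Top2a at 31.2, 41.1, 98.8 and 117 CPM (1.83 ± 0.30 (SE), edgeR adjusted p = 0.0131). The ubiquitin ligase partner Ube2c (3.99 ± 0.80 (SE), edgeR adjusted p = 0.0256), the kinetochore motor Cenpe (2.74 ± 0.60 (SE), edgeR adjusted p = 0.0386) and Ccnd1, at 21.5, 3.57, 35.3 and 123 CPM (2.76 ± 0.64 (SE), edgeR adjusted p = 0.0497), passed as well. The counts rested on 3 cells. One NK cell of mIDH1 replicate 1 held 37 of that library's 44 Mki67 UMIs, at 11484 UMIs and with no tumour marker, and 2 cells of mIDH1 replicate 2, at 61272 and 48927 UMIs and with 27 and 14 UMIs of tumour markers, held 45 of 49. Without these 3 cells the Mki67 UMIs were 4, 5, 7 and 4 and those of Top2a 29, 23, 12 and 14. There was no call among the 5 genes with cells over 20000 UMIs left out, with DESeq2, with cluster-based classes or without doublet removal, but not all 5 had an adjusted p in each. Mki67 had one in 10 alternatives, passed in 9 and was lost only without doublet removal. Top2a was tested and lost with cells over 20000 UMIs left out, with cluster-based classes and without doublet removal. Ube2c, Cenpe, Ccnd1 and Top2a did not keep their calls in every fit without 1 library. The cyclins Ccnd2, at 1188, 1134, 828 and 784 CPM, and Ccnd3, at 282, 311, 216 and 203 CPM, did not pass (Ccnd2 -0.31 ± 0.18 (SE), edgeR adjusted p = 0.398). Cdk1 stood at 0, 1.79, 11.8 and 44.8 CPM, Ccna2 at 1.08, 0, 11.8 and 14.4 CPM, Ccnb1 at 2.15, 3.57, 4.71 and 25.6 CPM and Cdkn1a at 95.8, 83.9, 72.9 and 49.6 CPM in NK cells.

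In monocytes 22 genes were tested and 3 passed, where 13.0% of all genes did. Ccnd2 fell, from 302 and 362 CPM in wtIDH1 to 89.8 and 110.5 CPM in mIDH1 (log2 fold change -1.48 ± 0.22 (SE), edgeR adjusted p = 0.000715), and it passed in 13 of 13 alternative analyses. Pcna fell less (-0.65 ± 0.21 (SE), edgeR adjusted p = 0.0482) and lost its call without wtIDH1 replicate 1, wtIDH1 replicate 2 or mIDH1 replicate 2 (-0.76, -0.55 and -0.46, edgeR adjusted p = 0.0984, 0.238 and 0.303). Cenpa, the histone of centromeres, rose from 19.7 and 20.8 to 34.7 and 31.6 CPM (0.94 ± 0.23 (SE), edgeR adjusted p = 0.0142), with no call without wtIDH1 replicate 1 (0.94, edgeR adjusted p = 0.0777).

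In macrophages 3 of 43 genes passed, where 9.27% of all genes did. Ccnd2 fell from 374 and 502 CPM to 127 and 151 CPM (log2 fold change -1.43 ± 0.19 (SE), edgeR adjusted p = 0.0053), again in 13 of 13 alternative analyses. Mcm4 fell (-0.90 ± 0.22 (SE), edgeR adjusted p = 0.0407) and Ccnd3 rose (0.76 ± 0.19 (SE), edgeR adjusted p = 0.0428), and each lost its call when wtIDH1 replicate 2, mIDH1 replicate 1 or mIDH1 replicate 2 was left out (edgeR adjusted p = 0.107 to 0.247 for Mcm4 and 0.0753 to 0.267 for Ccnd3; log2 fold changes -0.99 to -0.66 and 0.56 to 0.89). Over the 20 G2/M genes none passed and the median log2 fold change was 0.24. With the 282 macrophages over 20000 UMIs left out, where 10.2% of all genes passed, 6 genes fell: Ccnd2 (-1.51), Bub1b (-1.47), Rrm2 (-1.43), Mcm4 (-1.36), Mki67 (-0.91) and Top2a (-0.81). The 12 tumour markers summed to 5.02, 3.76, 28.9 and 10.7 CPM in macrophages, with 7 to 8 of them at 0, and their part in these values was not tested.

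Microglia and conventional dendritic cells gave no call. In microglia 0 of 36 tested genes passed, where 1.27% of all genes did, 7 had an unadjusted p under 0.05, against 10.9% of all genes, and DESeq2 called 0. In conventional dendritic cells 0 of 30 passed, where 2.93% of all genes did, 6 had an unadjusted p under 0.05, against 17.9% of all genes, and DESeq2 called 1. Fits without 1 library, which leave 1 library in a group, gave member calls in some cases for microglia and in every case for conventional dendritic cells. The share of all genes called moved between these fits as well. In conventional dendritic cells the lowest p belonged to Rrm2 (-3.09 ± 0.79 (SE), edgeR adjusted p = 0.0509), followed by Pcna (-1.09 ± 0.29 (SE), edgeR adjusted p = 0.0583) and Ccnd1 (-0.85 ± 0.23 (SE), edgeR adjusted p = 0.0675). In all 3 the wtIDH1 libraries lay above the mIDH1 libraries, which a choice by lowest p favours, so it adds no support. In mature neutrophils 1 of 16 tested genes passed, where 16.2% of all genes did: Ccnd2 fell from 426 and 566 CPM to 179 and 126 CPM (log2 fold change -1.16 ± 0.27 (SE), edgeR adjusted p = 0.0107). It did not pass without wtIDH1 replicate 1 (-1.29, edgeR adjusted p = 0.0582) or wtIDH1 replicate 2 (-0.99, edgeR adjusted p = 0.151). Cdkn1a in neutrophils did not pass (0.86 ± 0.30 (SE), edgeR adjusted p = 0.0642).

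In tumour cells 7 of 43 genes passed, 6 higher and 1 lower, where 10.9% of all genes did (6.19% higher and 4.67% lower). Hmmr, a spindle protein, stood at 32.4, 47.5, 115 and 90.6 CPM and rose (log2 fold change 1.68 ± 0.27 (SE), edgeR adjusted p = 0.00876). The anaphase activator Cdc20 stood at 24.7, 73.3, 110.2 and 127 CPM (1.56 ± 0.41 (SE), edgeR adjusted p = 0.041) and Ccnb2 at 21.6, 23.8, 46.7 and 40.1 CPM (1.27 ± 0.29 (SE), edgeR adjusted p = 0.0268). In each of the 3 both mIDH1 libraries were above both wtIDH1 libraries, which a choice by p favours, here and for the called genes that follow.

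Birc5 stood at 60.1, 71.3, 99.5 and 101 CPM (0.95 ± 0.24 (SE), edgeR adjusted p = 0.0364), the spindle assembly factor Tpx2 at 69.4, 94.1, 131 and 113 CPM (0.91 ± 0.24 (SE), edgeR adjusted p = 0.0464) and Dut at 219, 132, 291 and 319 CPM (1.18 ± 0.27 (SE), edgeR adjusted p = 0.0258) in tumour cells, and all 3 rose without overlap. Cdkn1a fell, from 225 and 171 CPM to 72.2 and 76.4 CPM (-1.05 ± 0.23 (SE), edgeR adjusted p = 0.0242). Of the 20 G2/M genes, 19 were higher in mIDH1, with a median log2 fold change of 0.71 against -0.02 over all genes, while the median of the 17 S phase genes was -0.11. Scaled to library totals without TMM, which moved the median of all genes to -0.36, 18 of 20 were higher with a median of 0.36. Mki67 (0.70 ± 0.22 (SE), edgeR adjusted p = 0.0725), Top2a (0.35 ± 0.28 (SE), edgeR adjusted p = 0.444) and Ccnd1 (-0.61 ± 0.24 (SE), edgeR adjusted p = 0.135) did not pass. Depth moved with genotype in tumour cells, at a median of 11165.5, 22752, 42706 and 33292.5 UMIs, and G2/M-positive tumour cells were deeper than the others (44682 against 27862 UMIs); the part of depth in these values was not tested. These sums rest on 32, 41, 91 and 58 cells. A fit without 1 library leaves 1 library in a group, and in each such fit the share of all genes called also fell. Hmmr lost its call without either mIDH1 replicate (log2 fold change 1.64 and 1.75). Ccnb2 (1.17 to 1.39), Birc5 (0.80 to 1.12), Tpx2 (0.68 to 1.19) and Cdkn1a (-1.21 to -0.87) lost theirs without any 1 of the 4. Dut passed only without wtIDH1 replicate 1 (otherwise 0.87 to 1.38) and Cdc20 only without wtIDH1 replicate 2 (otherwise 1.01 to 1.80).

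**Figure D5:**
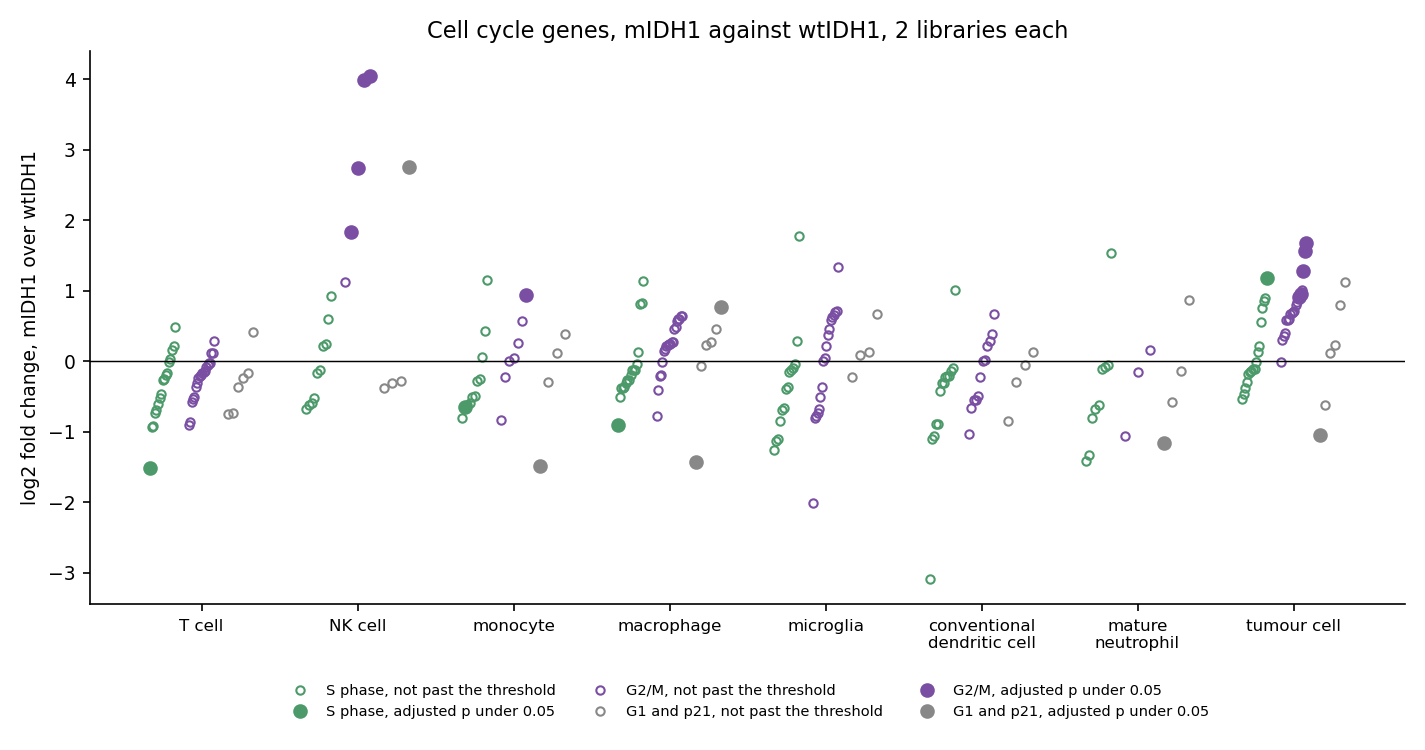
Log2 fold change of mIDH1 over wtIDH1 (2 libraries each) for every tested gene in 8 classes, green for S phase, purple for G2/M and grey for G1 genes, filled where the edgeR adjusted p was under 0.05. The G2/M points of tumour cells lie mostly above 0 with a median of 0.71, the NK points of Mki67 and Ube2c reach about 4 on the counts of 3 cells, and the Ccnd2 points of monocytes, macrophages and neutrophils lie at or below -1.16.

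Whether a genotype difference differed between 2 classes was tested with an interaction term over the same libraries. Between T and NK cells 2 of 43 genes passed, where 0.0638% of all genes did, both with a lower log2 fold change in T cells: Mki67 and Top2a, the genes of the 3 NK cells above. Between conventional dendritic cells and monocytes 1 of 36 tested genes passed, where 0.314% did, which was Ccnd2, at 1912, 1979, 1653 and 1064 CPM in conventional dendritic cells and 302, 362, 89.8 and 110.5 CPM in monocytes. Between tumour cells and macrophages 3 of 43 passed, where 6.23% did: Ccnd2, with a higher log2 fold change in tumour cells, and Ccnd1 and Cdkn1a, with a lower one. No member passed between monocytes and macrophages, where 1.39% of all genes did and 7 members had an unadjusted p under 0.05 (11.7% of all genes), or between macrophages and microglia, where 0.161% of all genes did and 2 members had one (5.21% of all genes). These 2 comparisons were not run with DESeq2.

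Genes of the cycle outside the 43 were counted for the same genotype comparison. In tumour cells 2 of 26 other S phase genes (Rfc4 1.26, Hells 0.99) and 4 of 32 other G2/M genes rose (Cks1b 1.37, Cdca8 1.43, Ckap2l 1.06, Smc2 0.80), on the log2 scale, and none fell. Over all genes 6.19% rose and 4.67% fell in tumour cells, which is the share to set beside these counts and those of the next 2 lists. Of 6 CDK inhibitors 2 rose: Cdkn2a, the gene of p16 and ARF, stood at 58.6, 0, 621 and 355 CPM (log2 fold change 4.60 ± 0.87 (SE), edgeR adjusted p = 0.0142), and its neighbour Cdkn2b also rose (1.47 ± 0.38 (SE), edgeR adjusted p = 0.0407). Of 18 upstream regulators Myc fell, from 64.7 and 96.1 CPM to 17.995 and 12.7 CPM (-2.05 ± 0.31 (SE), edgeR adjusted p = 0.00743). Cdkn2a rose as well in macrophages (1.84, 0.941, 17.01 and 10.2 CPM, 3.60 ± 0.42 (SE), edgeR adjusted p = 0.00335), microglia (6.05, 6.86, 58.4 and 94.8 CPM, 3.63 ± 0.46 (SE), edgeR adjusted p = 0.000232) and neutrophils (0, 1.84, 12.1 and 19.9 CPM, 4.55 ± 0.94 (SE), edgeR adjusted p = 0.00668). In both mIDH1 libraries these levels were below those of tumour cells. The 12 tumour markers summed to 10.9, 12.7, 40.7 and 36.5 CPM in microglia, with 8 to 10 of them at 0, and to 8.47, 7.35, 7.33 and 11.4 CPM in neutrophils. They were higher in mIDH1 in microglia as in macrophages, and their part in the Cdkn2a values was not tested. In monocytes the retinoblastoma relatives Rbl1 (-1.03) and Rbl2 (-1.15) fell and Cdk6 rose (1.01), on the log2 scale. In T cells, NK cells and conventional dendritic cells no gene of these lists passed, where 3.28, 2.12 and 2.93% of all genes did.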

How the data were processed

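Single-cell RNA was measured in 4 libraries, 2 wtIDH1 and 2 mIDH1, grouped by the genotype in the labels. The deposited matrices hold raw UMI counts per gene and barcode. Cell Ranger 3.1 produced them, with reads aligned to mm10 by STAR, per the labels' protocols, while the software version per the file headers is 3.0.0. The protocols also describe an aggregation to equal depth, yet the 4 deposited matrices are whole-number counts with unequal totals (20908476 to 29849183 UMIs) and were used as raw counts. Shallower libraries give less precise levels, and UMIs of the same gene depend on capture.

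Cells with 200 or more genes and at most 10% mitochondrial UMIs were kept, and the highest Scrublet scores were removed at 0.8% per 1000 barcodes (446 cells), because the automatic threshold of Scrublet (scanpy 1.11.5) called 8 cells. Classes required more of their own markers than of any other class by a margin of 0.1 in the share of markers found. The margin and the minimum marker numbers were chosen with the values in view. The members, marker lists and wider gene lists were chosen with earlier results of these data known. UMIs were summed per class and library for classes with 20 or more cells in every library, and all genes were tested with edgeR 4.0.16 (R 4.3.3, TMM, filterByExpr, quasi-likelihood, Benjamini-Hochberg). DESeq2 1.42.0 was an alternative. The fitting code was tested on simulated data. Shares were compared with exact permutation tests coded directly, with 95% Wilson intervals (scipy 1.17.1) and a limit of 3 counts for shares of 0. Named with values were Mki67, Top2a, Pcna, Mcm5, Rrm2, Ccna2, Ccnb1, Cdk1, Ccnd1, Ccnd2, Ccnd3 and Cdkn1a, the genes past the threshold between genotypes, the 3 highest and lowest of each class, and up to 4 genes per wider list with the lowest p. Alternatives were DESeq2, library totals without TMM, no filter on low counts, a replicate block, no library block, a margin of 0.3, classes from Leiden clusters (resolution 1.5), at most 5% mitochondrial UMIs, no doublet removal, other thinning depths and positivity limits, leaving out each library and, added after seeing the data, leaving out immune cells over 20000 UMIs and a crossed replicate block. B cells, mast cells and plasmacytoid dendritic cells were not analysed here.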

Additional observations from a re-analysis of the deposited data

Results flagged for a closer look

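The genotype difference was compared between 2 classes of the same libraries by an interaction term in edgeR with the library as a block, and 6 values of members differed. Between T and NK cells, where 0.0638% of all genes passed, the log2 fold change of mIDH1 over wtIDH1 was lower in T cells for Mki67, by a difference of -4.28 ± 0.34 (SE; edgeR adjusted p = 0.000711), and for Top2a, -2.42 ± 0.35 (SE; edgeR adjusted p = 0.0352). Most Mki67 UMIs of mIDH1 NK cells came from 3 cells, as given above. Both genes still passed with immune cells over 20000 UMIs left out (Mki67 -3.81, edgeR adjusted p = 0.0157, and Top2a -1.90, edgeR adjusted p = 0.025). That setting kept 1 of the 3 cells, the one of 11484 UMIs. Top2a was not called without wtIDH1 replicate 1 or 2 (-2.55 and -2.29). Without mIDH1 replicate 1 more members passed, and so did more of all genes.

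Ccnd2 differed between conventional dendritic cells and monocytes, where 0.314% of all genes passed: its genotype difference was higher in conventional dendritic cells by 1.22 ± 0.23 (SE; edgeR adjusted p = 0.0428), from 1912, 1979, 1653 and 1064 CPM against 302, 362, 89.8 and 110.5 CPM. Without wtIDH1 replicate 1 it was 1.28 (edgeR adjusted p = 0.281). Between tumour cells and macrophages, where 6.23% of all genes passed, the genotype difference of Ccnd2 was higher in tumour cells by 2.70 ± 0.46 (SE; edgeR adjusted p = 0.00188), from 558, 174, 767 and 467 CPM against 374, 502, 127 and 151 CPM. That of Cdkn1a was lower in tumour cells, -1.27 ± 0.26 (SE; edgeR adjusted p = 0.0064), and did not pass without wtIDH1 replicate 2 (-1.24, edgeR adjusted p = 0.0586). That of Ccnd1 was lower, -0.86 ± 0.25 (SE; edgeR adjusted p = 0.0476), and passed in 1 of 6 alternative analyses (without one library -0.96 to -0.69, edgeR adjusted p = 0.116 to 0.253).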

How the results depend on the processing

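Ccnd2 passed between genotypes in monocytes and macrophages in 13 of 13 alternatives each, Rrm2 in T cells in 12 of 14, Hmmr in tumour cells in 10 of 12, Cenpa in monocytes and Mcm4 in macrophages in 9 of 13, and Tpx2 in tumour cells in 3 of 12. With DESeq2, 180 single-gene results kept their direction and side of the threshold, 13 lost and 3 gained a call. For each class, counts of members called between genotypes were as follows. Brackets give the share of all genes called in the same settings, against that of the main fit. NK cells gave 0 with DESeq2, cluster classes, no doublet removal or no immune cells over 20000 UMIs, 17 with no filter on low counts and 2 at 5% mitochondrial UMIs, against 5 (1.03, 5.76, 0, 4.49, 4.08 and 1.45%, against 2.12%). T cells gave 3 with DESeq2, 2 with library totals, 9 with no filter, 4 with cluster classes, 0 at 5% mitochondrial UMIs, 2 with no doublet removal and 5 without cells over 20000 UMIs, against 1 (2.88, 2.87, 7.27, 6.48, 2.47, 7.43 and 3.64%, against 3.28%). Conventional dendritic cells gave 1 with DESeq2, 3 with totals, 3 with no filter, 2 with the stricter gate, 1 at 5% mitochondrial UMIs and 1 with no doublet removal, against 0 (1.76, 2.11, 4.25, 2.21, 4.04 and 2.18%, against 2.93%). Macrophages gave 1, 6, 5 and 6 with DESeq2, no filter, cluster classes and no cells over 20000 UMIs, against 3 (5.22, 12.3, 9.65 and 10.2%, against 9.27%). Mature neutrophils gave 2 with DESeq2, 5 with totals, 3 with no filter, 0 with the stricter gate or cluster classes, 7 with no doublet removal and 3 without cells over 20000 UMIs, against 1 (4.33, 21.5, 10, 4.74, 0.82, 12.2 and 15.7%, against 16.2%). Microglia gave 2 with no filter and 1 without cells over 20000 UMIs, against 0 (1.97 and 1.41%, against 1.27%). Monocytes gave 1 with DESeq2 and 5 with cluster classes, against 3 (4.95 and 8.94%, against 13%). Tumour cells gave 4, 3 and 15 with DESeq2, totals and no filter, against 7 (4.2, 14.1 and 12%, against 10.9%). The causes were not tested. The tumour cell and macrophage interaction gave 17 members without cells over 20000 UMIs, against 3 (5.85%, against 6.23%).

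Between classes, with brackets as above, conventional dendritic cells over monocytes gave 29 with no filter, against 19 (30.4%, against 46.4%). Macrophages over microglia gave 5 with no filter, 7 with cluster classes, 7 at 5% mitochondrial UMIs, 15 without cells over 20000 UMIs and 1 without the library block, against 3 (15.2, 28.4, 13.9, 23.4 and 8.43%, against 18.3%). Monocytes over macrophages gave 23 without cells over 20000 UMIs, against 35 (42%, against 46.3%). Ccnd2 in monocytes over macrophages turned to 0.23 (edgeR adjusted p = 0.195) with cluster classes, and Top2a in mature neutrophils to -1.60 (edgeR adjusted p = 0.031) with no doublet removal.

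No pairing of libraries by replicate number was seen in the counts: deviations of same-numbered libraries correlated at -0.164 in T cells, -0.108 in microglia and between -0.056 and 0.0948 in the other classes. With 2 libraries a group, these values cannot exclude a pairing in preparation. A replicate block gave 3 member calls in T cells, 3 in conventional dendritic cells, 3 in mature neutrophils and 1 in microglia, where 6.7, 8.1, 19.4 and 1.67% of all genes passed. The crossed block, added after seeing the data, gave 6 in T cells and 2 in microglia, where 8.81 and 4.37% passed.

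Leaving out 1 library at a time, genotype calls ranged over 0 to 9 (T cells), 1 to 18 (NK cells), 1 to 3 (monocytes), 1 to 3 (macrophages), 0 to 2 (microglia), 1 to 6 (conventional dendritic cells), 0 to 3 (mature neutrophils) and 0 to 4 (tumour cells). Interaction calls ranged over 1 to 21 (T over NK cells), 0 to 2 (monocytes over macrophages), 0 to 2 (macrophages over microglia), 0 to 1 (conventional dendritic cells over monocytes) and 1 to 9 (tumour cells over macrophages). Class calls ranged over 28 to 40 (T over NK cells), 34 to 39 (monocytes over macrophages), 1 to 4 (macrophages over microglia), 18 to 27 (conventional dendritic cells over monocytes) and 31 to 39 (tumour cells over macrophages). In the same order 19.4 to 31.7, 36.3 to 42.5, 10.7 to 16.3, 39.2 to 43.5 and 55.1 to 62.5% of all genes passed. Of the share differences that follow, that of G2/M-positive NK cells rests on 2, 1, 2 and 2 positive cells in library order. Genotype differences in shares ranged, S-positive then G2/M-positive, over -13.4 to -8.08 and -7.43 to -1.19 points (T cells), -5.92 to -2.84 and 0.788 to 1.38 points (NK cells), -1.22 to -0.299 and -0.405 to -0.161 points (monocytes), -7.004 to -4.54 and -5.29 to -3.5997 points (macrophages), -13.2 to -5.64 and -11.4 to -3.65 points (microglia), -6.35 to -2.23 and -2.43 to 0.599 points (conventional dendritic cells), -3.305 to -2.02 and -0.798 to 0.278 points (mature neutrophils) and -10.5 to -7.15 and 7.404 to 12.2 points (tumour cells), and class differences over 10.9 to 13.8 and 7.81 to 11.2 points (T over NK cells), -9.11 to -6.88 and -7.199 to -5.33 points (monocytes over macrophages), -3.77 to -0.143 and -1.97 to 0.851 points (macrophages over microglia), 2.12 to 4.23 and 1.35 to 2.28 points (conventional dendritic cells over monocytes) and 26.5 to 28.7 and 33.7 to 40.1 points (tumour cells over macrophages).

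Of the shares, mIDH1 minus wtIDH1 turned sign for monocyte S-positive cells with the stricter gate (0.0264 points), for monocyte G2/M-positive cells at 2000 UMIs (0.283) and with 1 or 3 genes required (1.44 and 0.122), for conventional dendritic cell G2/M-positive cells at 2000 UMIs (0.149) and unthinned (1.22), and for tumour S-positive cells unthinned (8.66). Macrophage minus microglia S-positive shares turned to 1.39 unthinned and 0.228 with 3 genes required.

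Library totals without TMM moved the median log2 fold change of all genes between genotypes by -0.55 to -0.17, furthest in mature neutrophils and least in microglia, and the share of all genotype calls that were higher in mIDH1 from 82.3 to 49.1% in T cells, 91.8 to 59.3% in NK cells, 65.0 to 30.8% in monocytes, 73.8 to 39.8% in macrophages, 81.5 to 48.0% in conventional dendritic cells, 55.8 to 13.8% in mature neutrophils and 57.0 to 22.2% in tumour cells. Among class and interaction calls the share higher moved from 47.4 to 60.9% (conventional dendritic cells over monocytes), 46.9 to 34.8% (macrophages over microglia), 48.3 to 64.4% (tumour cells over macrophages), 33.3 to 44.4% (T over NK cells, interaction) and 25.8 to 15.6% (tumour cells over macrophages, interaction). None of 226 single-gene results reversed under it. Too few UMIs of the members left 19, 16 and 22 of the 43 genes to be tested in NK cells, mature neutrophils and monocytes, although monocytes were the deepest immune class (median 8034.5 UMIs).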

Other observations

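Conventional dendritic cells were not uniform in the G1 genes, as subsets chosen after the values were seen show without a test. In the 253 cells with 2 or more of Ccr7, Fscn1 and Ccl22, genes of dendritic cells that migrate to lymph nodes, Cdkn1a stood at 1154, 877, 617 and 724 CPM in library order and Ccnd1 at 356, 119, 156 and 33.4 CPM. In the 75 cells with Xcr1 or Clec9a, genes of cross-presenting dendritic cells, Cdkn1a stood at 304, 126, 275 and 169.8 CPM and Ccnd1 at 655, 655, 204 and 180.4 CPM. The 200 cells with Cd209a, Clec10a or Mgl2 had 745, 762, 798 and 557 CPM of Cdkn1a and 495, 683, 398 and 388 CPM of Ccnd1. Over all libraries the first subset thus had the lowest Ccnd1 (193 against 530.5 and 529 CPM) and the second the lowest Cdkn1a (213 against 865 and 730.1 CPM). Ccnd3 was highest in the second (267 against 78.8 CPM in the first). The S-positive shares after thinning were 4.53, 8.45 and 6.599%.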
